A study of Homo sapiens with 3 samples.

Results

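HIPK1, HIPK2 and HIPK3 were measured by 18 probe sets on 3 arrays of Rh-30 cells, with 4 probe sets for HIPK1, 10 for HIPK2 and 4 for HIPK3. They are 3 of the 19775 genes that had at least 1 probe set named with that gene alone in the platform annotation, and every such probe set of the 3 genes was used. HIPK3 was chosen on its higher intensity after PAX3-FOXO1 knockdown, so its values in that comparison are a description. HIPK1 and HIPK2 were taken with it as members of the same kinase family. Rh-30 is an established line of alveolar rhabdomyosarcoma (ARMS), a childhood tumor with features of skeletal muscle, and has the fusion gene PAX3-FOXO1. Cells were transfected with control siRNA (siCont, labelled siControl), with an siRNA against the junction of the fusion transcript (siPF, labelled siPAX3-FOXO1) or with an siRNA against B7-H3 (siB7-H3). Every culture, siCont included, received siRNA at 5 nM with Lipofectamine RNAiMAX, and RNA was taken after 24 h. Each target had 1 siRNA, each condition had 1 array, and all cells were of 1 line, so conditions could not be tested against each other and each difference given is one between 2 arrays. Where 3 intensities follow each other they are in the order siCont, siPF, siB7-H3, and every log2 difference is relative to siCont unless another array is named.

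Homeodomain-interacting protein kinases are nuclear serine/threonine kinases related to the DYRK kinases. They bind homeodomain proteins, corepressors and other regulators of transcription, and they act in stress responses, apoptosis, Wnt signalling and development. Their activity is set largely by protein turnover, since ubiquitin ligases such as SIAH1, WSB1 and MDM2 drive the breakdown of HIPK2. In muscle precursors HIPK2 has been described as a brake on myogenic differentiation that is released by caspase cleavage. HIPK3 is known for phosphorylating FADD, an adaptor of death receptors, and for acting with steroidogenic factor 1.

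The targets of the siRNAs and the muscle markers were read on the same arrays. FOXO1, the 3' partner of the fusion, had 678, 249 and 650.0, lowest in siPF, and CD276, which encodes B7-H3, had 1486, 1381 and 362, lowest in siB7-H3. PAX3, the 5' partner, had 381, 329 and 398, and its 4 probe sets ranged from -0.27 to 1.51 on the log2 scale in siPF. Whether a FOXO1 or PAX3 probe set read the fusion or a normal transcript was not determined. MYOD1, the myogenic transcription factor, had at least 8688, FGFR4, a receptor kinase gene, at least 5182 and DES, the gene of desmin, at least 2776 on every array, while TFAP2B, another marker of this tumor type, was dim at 35.5 or less. A level limit was set for dim values at the 60th percentile of the probe sets of each array, an intensity of 132, 137 and 135, and a gene or probe set passed the level rule when the higher of the 2 arrays compared reached its limit. Of 7 markers of epithelial, blood and endothelial cells, PECAM1 passed the level rule, with 621 to 910.1, and the others had at most 129. Of the 7 muscle markers listed, 5 passed the level rule in siPF, 3 above siCont and 2 below. Above were DES, with 2776, 4533 and 3399, CDH15, with 1294, 2038 and 1560, and MYOG, by a log2 difference of 2.48. Below were MYOD1, with 11471, 8688 and 13046, and FGFR4, with 6854, 5182 and 7100. In siB7-H3 6 passed and all 6 were above siCont. The part of these differences in the HIPK values was not tested.

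HIPK3 was higher on the siPF array than on the siCont array at all 4 of its probe sets, and the siB7-H3 array lay between them at each. At 226297_at, the probe set with the highest mean level, the intensity was 1427 on the siCont array, 8755 on the siPF array and 3104 on the siB7-H3 array. This amounted to 6.14-fold in siPF, a log2 difference of 2.62, and to 2.18-fold in siB7-H3, a log2 difference of 1.12. The siPF array was 2.82-fold above the siB7-H3 array. No second array shows how far the values of 1 condition would scatter, so the spread of other probe sets of like brightness was taken as a guide. Among the 1000 probe sets nearest in mean level, the log2 difference had an SD of 0.29 in siPF and 0.27 in siB7-H3. It describes other transcripts, real changes included, and is not a replicate error. RNA of whole cultures was measured, so a change in all cells and a larger change in some of them cannot be told apart.

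The other HIPK3 probe sets had lower intensities and smaller differences. At 210148_at the intensities were 107, 325 and 207, with log2 differences of 1.60 (siPF) and 0.95 (siB7-H3). At 207764_s_at they were 38.4, 81.9 and 70.2, with log2 differences of 1.09 and 0.87. At 213697_at they were 45.2, 92.3 and 56.0, with log2 differences of 1.03 and 0.31. Both knockdown arrays were thus above siCont at each, siPF by more. The last 2 probe sets were under the level limit on all arrays, where the nearest probe sets had SDs of 0.80 and 0.78 in siPF.

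All 4 HIPK3 probe sets were thus at least 2-fold higher in siPF and 1 of 4 in siB7-H3. Across all probe sets named with 1 gene, 10.7% were at least 2-fold higher in siPF and 9.82% in siB7-H3. Of the 1393 genes with exactly 4 probe sets, 2 had all 4 at least 2-fold higher in siPF (0.144%), namely HIPK3 and EMP2, an epithelial membrane protein gene. HIPK3 was chosen for its rise in siPF, so nothing is read from its place in this count. In siB7-H3 this held for 1 such gene (0.0718%), and HIPK3 was not that gene. Probe sets of a gene read the same RNA on the same array, so they are repeated readings of 1 sample. Where the probes lie along the transcripts was not used here.

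**Figure D1:**
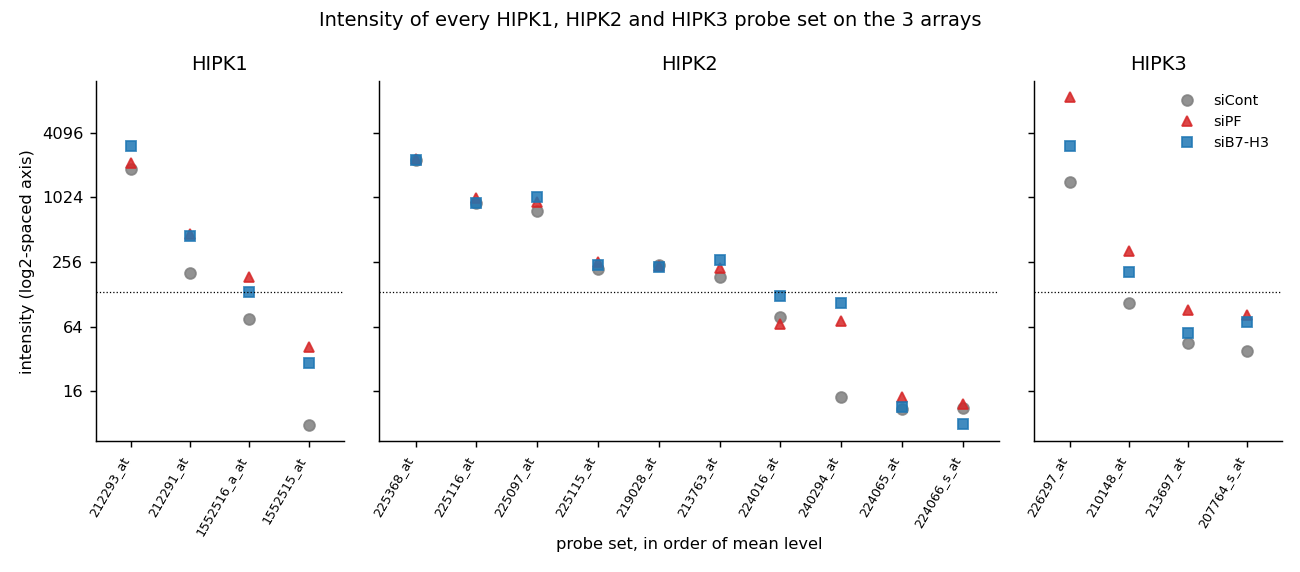
Intensity (vertical axis, spaced by log2) of each HIPK1, HIPK2 and HIPK3 probe set (horizontal axis, in order of mean level) on the siCont, siPF and siB7-H3 arrays, 1 point per array. HIPK3 shows siPF above siB7-H3 above siCont at all 4 probe sets, whereas the 3 arrays overlie at the HIPK2 probe set 225368_at; the dotted line marks an intensity of 135, the level limit of the siB7-H3 array.

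By the probe set with the highest mean level, HIPK3 had the 7th highest log2 difference in siPF among 10491 genes over the level limit, of which 1.38% were at least 2-fold higher and 1.12% at least 2-fold lower. Since HIPK3 was chosen for this value, nothing is read from that rank. In siB7-H3 it was 55th of 10474 genes, with 0.792% at least 2-fold higher and 0.821% at least 2-fold lower. The comparison shares its siCont array with the one that chose HIPK3, so a low reading on that array would raise both. Directly between the knockdown arrays HIPK3 was 29th of 10445 genes in siPF minus siB7-H3, a log2 difference of 1.50, where 0.9% of genes were at least 2-fold higher and 0.919% at least 2-fold lower. This comparison holds the siPF array on which the choice was made. The arrays were also scaled on 45 probe sets of added control transcripts, and at which step these were added is not given in the sources used here. This puts the median of all genes at -0.18 in siPF and -0.24 in siB7-H3. HIPK3 then had log2 differences of 2.42 in siPF and 0.87 in siB7-H3, the latter short of 2-fold. By that scaling 2 of its 4 probe sets were past 2-fold in siPF and 0 in siB7-H3.

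**Figure D2:**
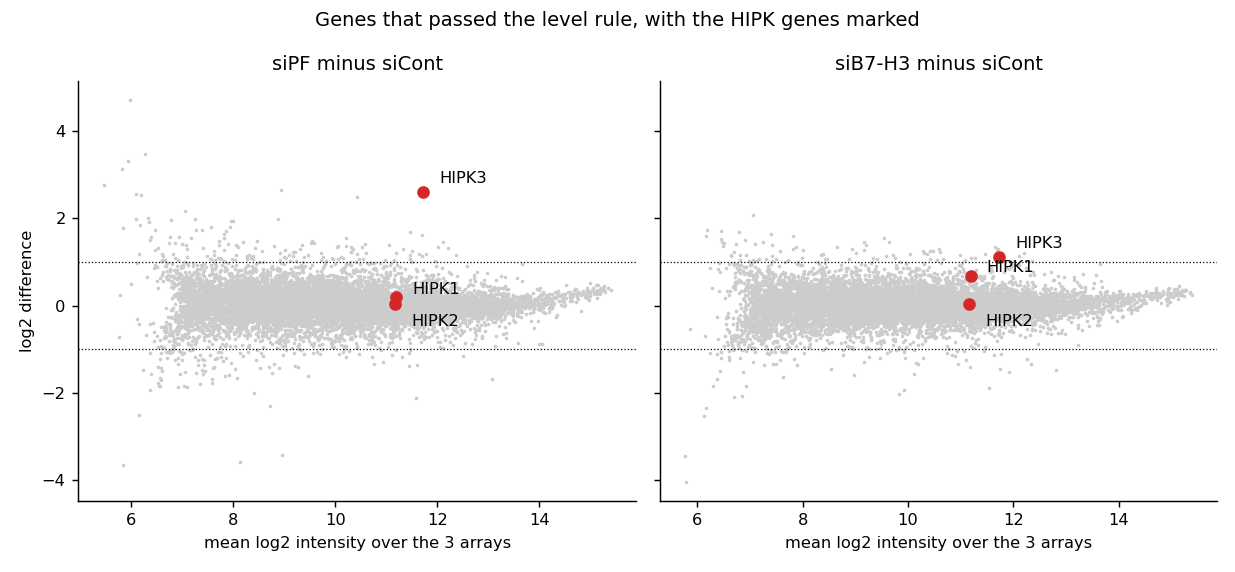
Log2 difference (vertical axis) against the mean log2 intensity over the 3 arrays (horizontal axis) for every gene over the level limit, 1 grey point per gene, in siPF (left) and siB7-H3 (right), each minus siCont. Dotted lines mark 2-fold. HIPK3 lies at 2.62 in siPF and 1.12 in siB7-H3, HIPK1 at 0.19 and 0.69, and HIPK2 at 0.03 in both.

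The pattern of HIPK3 over the 3 arrays was most like that of MYOG, which encodes the muscle transcription factor myogenin. Likeness was the Euclidean distance between the pairs of log2 differences to siCont, over the 10602 genes that reached the level limit on at least 1 array. MYOG, at a distance of 0.14, had 605, 3386 and 1269. CKB, the brain-type creatine kinase, followed at 0.18, with 198, 1244 and 487. MPND, at 0.40, had 26.5, 158 and 75.8, and CHRM4, a muscarinic acetylcholine receptor at a distance of 0.62, had 27.4, 159.8 and 91.5, so both reached the level limit in siPF alone and their distances rest on dim values on the other arrays. EDIL3, an integrin-binding protein of the extracellular matrix at a distance of 0.64, had 232, 916 and 486. MYOG, CKB, MPND and CHRM4 had 1 probe set each, and the other probe sets of EDIL3 lay at 0.98 and 1.22 on the log2 scale in siPF. A pattern over 3 arrays holds only 2 differences, and the distances are given with no test. With the distance taken between values centred on their own mean, all 5 of these genes were again the nearest 5. That distance only weights the same 2 differences in another way, so it is not a separate check.

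**Figure D3:**
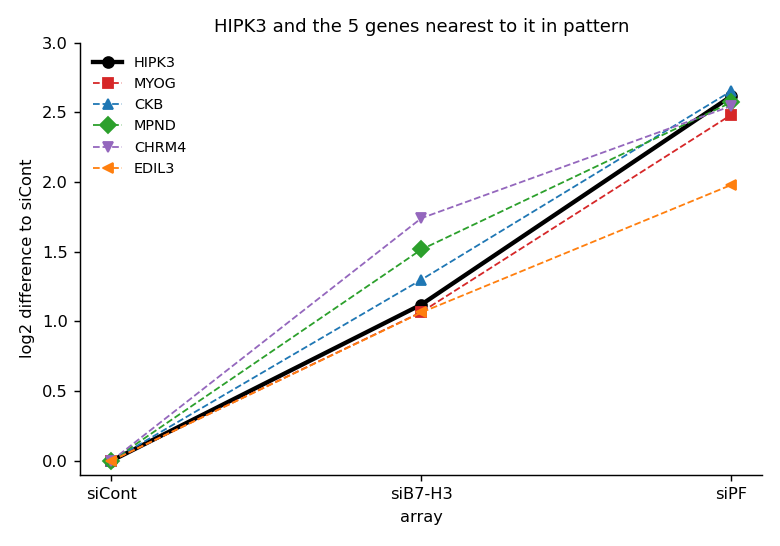
Log2 difference to siCont (vertical axis) on the siCont, siB7-H3 and siPF arrays (horizontal axis) for HIPK3 and the 5 genes nearest to it, each by 1 probe set. Lines only join the values of a gene. HIPK3 reaches 1.12 in siB7-H3 and 2.62 in siPF, and MYOG 1.07 and 2.48.

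The nearest genes were found with the siPF value for which HIPK3 was chosen, so their likeness is a description. To show the sequence beside it, the bases before the first annotated start of HIPK3 are shown. The RefSeq promoter table (GRCh38.p14) matched 2 of the 3 HIPK genes, with 3 starts for HIPK3 and 3 for HIPK1, and the arrays do not tell from which start a transcript came. The sequence is chr11:33256422-33256671 on the plus strand, the 250 bases before the 1st HIPK3 start, with capitals on the match to the E-box CANNTG, the motif bound by myogenic factors such as MYOD1 and myogenin.

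HIPK3: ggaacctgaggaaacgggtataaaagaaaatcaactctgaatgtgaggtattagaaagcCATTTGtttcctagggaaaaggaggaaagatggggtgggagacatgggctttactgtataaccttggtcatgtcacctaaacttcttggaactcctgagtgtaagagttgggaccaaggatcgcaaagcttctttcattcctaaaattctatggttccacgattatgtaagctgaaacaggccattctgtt

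This match begins at position -191, counted back from -1 at the last base before the start, and overlaps no match to ATTA, a core of homeodomain sites, or GTCAC, a core of paired-domain sites, which had 2 matches and 1 match in the same window on either strand. The windows before the other HIPK3 starts held no match to any of the 3 motifs and were GC-rich, at 81.6% and 73.2%, against 42% in the sequence shown. Over all 35116 windows of this length, 61.8% held an E-box match, 47.4% ATTA and 37.3% GTCAC, and a match describes the letters, not a bound site. In the same 250 bases the MYOG window held 1 E-box match, the 2 overlapping EDIL3 windows held the same 2, and those of CKB, MPND and CHRM4 held 0. The HIPK1 windows held 1, 0 and 1, the last with the same letters as the HIPK3 match.

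HIPK1 was above siCont on both knockdown arrays at all 4 probe sets, but the probe sets disagreed about the size. At 212293_at, which represents the gene, the intensities were 1905, 2166 and 3071. Here the log2 difference was 0.19 in siPF, less than the SD of 0.31 of the nearest probe sets, and 0.69 in siB7-H3, against an SD of 0.30. The siB7-H3 array was the highest of the 3 at this probe set, 1.42-fold above siPF. At 212291_at the intensities were 203, 464 and 447, with log2 differences of 1.20 and 1.14, so the knockdown arrays were alike and both above siCont. At 1552516_a_at they were 75.6, 187 and 134, with log2 differences of 1.31 and 0.83. At the dim 1552515_at they were 7.78, 41.4 and 29.3, with log2 differences of 2.41 and 1.91, where the nearest probe sets had SDs of 1.51 and 1.55. Past 2-fold higher were thus 3 of 4 probe sets in siPF and 2 of 4 in siB7-H3, the dim 1552515_at included, beside 10.7% and 9.82% of all probe sets. The 3 probe sets past 2-fold in siPF did not include the one with the highest level, and whether 212293_at and the others read the same HIPK1 transcripts was not determined. With the arrays scaled on the added control transcripts, 212293_at had a log2 difference of -0.02 in siPF and 0.44 in siB7-H3, and 3 of its 4 probe sets were above siCont in siPF and 4 in siB7-H3, of which 2 and 1 were past 2-fold. HIPK1-AS1, an antisense RNA gene that overlaps the start of HIPK1 on the other strand in the RefSeq annotation, was dim, with at most 30.2 on any array at its 2 probe sets.

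HIPK2 was alike on the 3 arrays at its 2 brightest probe sets, and its other probe sets over the level limit differed by less than 2-fold. At 225368_at the intensities were 2267, 2314 and 2308, a log2 difference of 0.03 in both knockdowns, where the nearest probe sets had an SD of 0.30. At 225116_at they were 910.1, 1002 and 915. At 225097_at they were 771, 922 and 1028, the siB7-H3 array being the highest, with log2 differences of 0.26 and 0.42, the latter against an SD of 0.33. The probe sets 225115_at, 219028_at and 213763_at lay between 186 and 270 on all arrays, and their log2 differences reached at most 0.27 in siPF and 0.54 in siB7-H3, both at 213763_at, the latter against an SD of 0.41. None of the 6 HIPK2 probe sets that passed the level rule was past 2-fold either way in any comparison. This is near the background. By their brightest probe sets, 97.5% of all genes over the limit were within 2-fold in siPF. In siB7-H3 98.4% were, and in siPF minus siB7-H3 98.2%. Under the limit, 240294_at gave 14.2, 73.1 and 106, with log2 differences of 2.36 and 2.89 with SDs of 0.84 in both, while 224016_at, 224065_at and 224066_s_at were within 2-fold. Which HIPK2 transcripts 240294_at reads was not determined. Over the 10 probe sets 8 were above siCont in each knockdown, and 4 of 10 with the arrays scaled on the added control transcripts. HIPK4, the remaining family member, had 1 probe set, which stayed under the level limit at 69.7, 86.9 and 23.4.

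**Figure D4:**
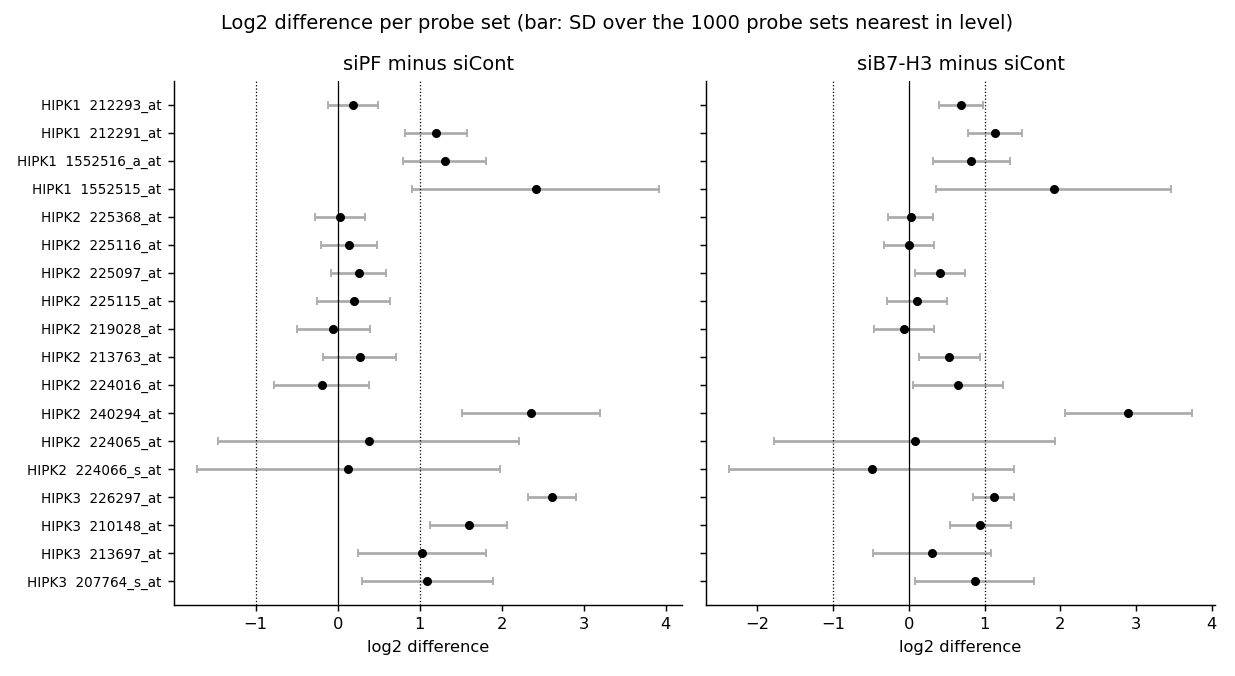
Log2 difference to siCont (horizontal axis) of each HIPK1, HIPK2 and HIPK3 probe set in siPF (left) and siB7-H3 (right). Points are single differences between 2 arrays, bars are 1 SD of the log2 difference over the 1000 probe sets nearest in mean level and not a replicate error, and dotted lines mark 2-fold. In siPF the HIPK3 points lie from 1.03 to 2.62, and 9 of the 10 HIPK2 points lie from -0.19 to 0.38.

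The order of the 3 arrays thus differed within the family. For HIPK3 it was siPF, siB7-H3, siCont at all 4 probe sets, although siB7-H3 lay within 1 SD of the nearest probe sets of both other arrays at 213697_at, and of siPF at 207764_s_at. For HIPK1 the order was siPF, siB7-H3, siCont at 3 probe sets, though siPF and siB7-H3 lay within 1 SD of each other at all 3, and it was siB7-H3, siPF, siCont at the one with the highest level. For HIPK2 at 225368_at no pair of arrays differed by 1 SD. Between the HIPK1, HIPK2 and HIPK3 probe sets intensities were not compared, since each binds its target with its own strength.

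A list of 11 genes held HIPK4 and DYRK, CLK and related kinases, those closest to the HIPK family. Of these 11, 10 were measured and 8 passed the level rule, HIPK4 not among them. At the brightest probe set of each gene, all 8 were above siCont in siPF and 7 in siB7-H3, beside 52.5% and 52.8% of all genes over the limit. None was past 2-fold there, a share near the background since 97.5% and 98.4% of those genes were not either. Their median log2 difference was 0.25 in siPF and 0.21 in siB7-H3, beside 0.02 in both over all genes that passed the rule. Scaling on the added control transcripts shifts every gene of an array by the same amount, and 5 of 8 were then above siCont in siPF and 4 in siB7-H3. DYRK3, which acts in the dissolution of stress granules, had the largest log2 difference of the 8 in siPF (0.70), with 222, 359 and 310.4. Its other, dim probe set had 0.06. DYRK1A, the kinase encoded in the Down syndrome region, had 2132, 2556 and 2771. Its 5 probe sets ranged from -3.12 to 0.26 on the log2 scale in siPF, all but the brightest being dim. DYRK2, which like HIPK2 can phosphorylate p53, had 1086, 1284 and 1519. Its 4 probe sets ranged from -1.70 to 0.71 on the log2 scale in siPF. The lowest of these, with 190, 58.2 and 154, passed the level rule in siPF and was past 2-fold lower there. The CLK kinases, which phosphorylate splicing factors, lay between 0.06 and 0.34 in siPF.

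By their brightest probe sets, the genes that control HIPK proteins were within 2-fold of siCont in both knockdowns. So were 97.5% of all genes over the level limit in siPF and 98.4% in siB7-H3. Of 17 such genes 12 were measured, all passed the level rule, and 7 were above and 5 below siCont in siPF, against 5 above and 7 below in siB7-H3. The median log2 difference was 0.14 in siPF and -0.09 in siB7-H3, and with the scaling on the added control transcripts 6 of 12 were above siCont in siPF and 2 in siB7-H3. SIAH1, a ubiquitin ligase of HIPK2, had 4390.3, 4387 and 4399 at its brightest probe set, and its 3 probe sets ranged from -0.06 to 1.54 on the log2 scale in siPF and between -0.26 and 0.52 in siB7-H3. WSB1, the substrate receptor of another HIPK2 ligase, had 6065, 6350.0 and 6550, with its 5 probe sets from -0.50 to 0.20 in siPF on the log2 scale. MDM2, a ubiquitin ligase of p53 that also targets HIPK2, had the lowest value of the list in siPF, with 2885, 1611 and 2309, log2 differences of -0.84 and -0.32, and was past 2-fold lower in siPF with that scaling. Over its 10 probe sets the log2 difference in siPF ranged from -1.09 to 0.71. HMGA1, a chromatin protein that binds HIPK2, had 339.7, 485 and 615, log2 differences of 0.51 and 0.86, and so was highest in siB7-H3. CASP6, a caspase that cleaves HIPK2, had 584, 733 and 419, but its other probe set was lower in siPF than in siCont, by a log2 difference of -0.37.

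Among substrates and partners 24 of 29 genes were measured and 22 passed the level rule, of which 1 was past 2-fold higher in siPF, beside 1.38% of all genes, and 1 past 2-fold lower in siB7-H3, beside 0.821%. Above siCont were 5 genes in siPF and below it 17, with a median log2 difference of -0.15, while 5507 of all genes over the limit were above and 4984 below. For siB7-H3 these counts were 12 and 10, with a median of 0.02, beside 5528 and 4946 of all genes, and they became 4 and 18 with the scaling on the added control transcripts. MYB, a transcription factor phosphorylated by HIPK kinases, was the gene past 2-fold in siPF, with 249, 518 and 294. With that scaling it fell short of 2-fold, and its other, dim probe set had a siPF difference of 0.14 on the log2 scale. LEF1, a transcription factor of the Wnt pathway, was the gene past 2-fold in siB7-H3, with 963, 869 and 416, and it was also past 2-fold higher in siPF than in siB7-H3, by 1.06 on the log2 scale. Its other 2 probe sets were lower in siB7-H3 as well, by -0.73 and -1.52 on the log2 scale, and all 3 are of a kind that can bind several transcripts. MEF2C, a muscle transcription factor with which HIPK2 has been linked, had 1687, 2834 and 2101, and in siPF its 3 probe sets lay between 0.75 and 0.95 on the log2 scale. TP53INP1, a stress protein that binds HIPK2 and p53, had 158, 304 and 219. FADD, the adaptor phosphorylated by HIPK3, had 4096, 2876 and 3248, lowest in siPF by a log2 difference of -0.51. DVL1, which relays Wnt signals, had 686, 399 and 398, lower by the same amount in both knockdowns. SMAD1, a transcription factor of BMP signalling, had 2128, 1468 and 2105, alike in siCont and siB7-H3.

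**Figure D5:**
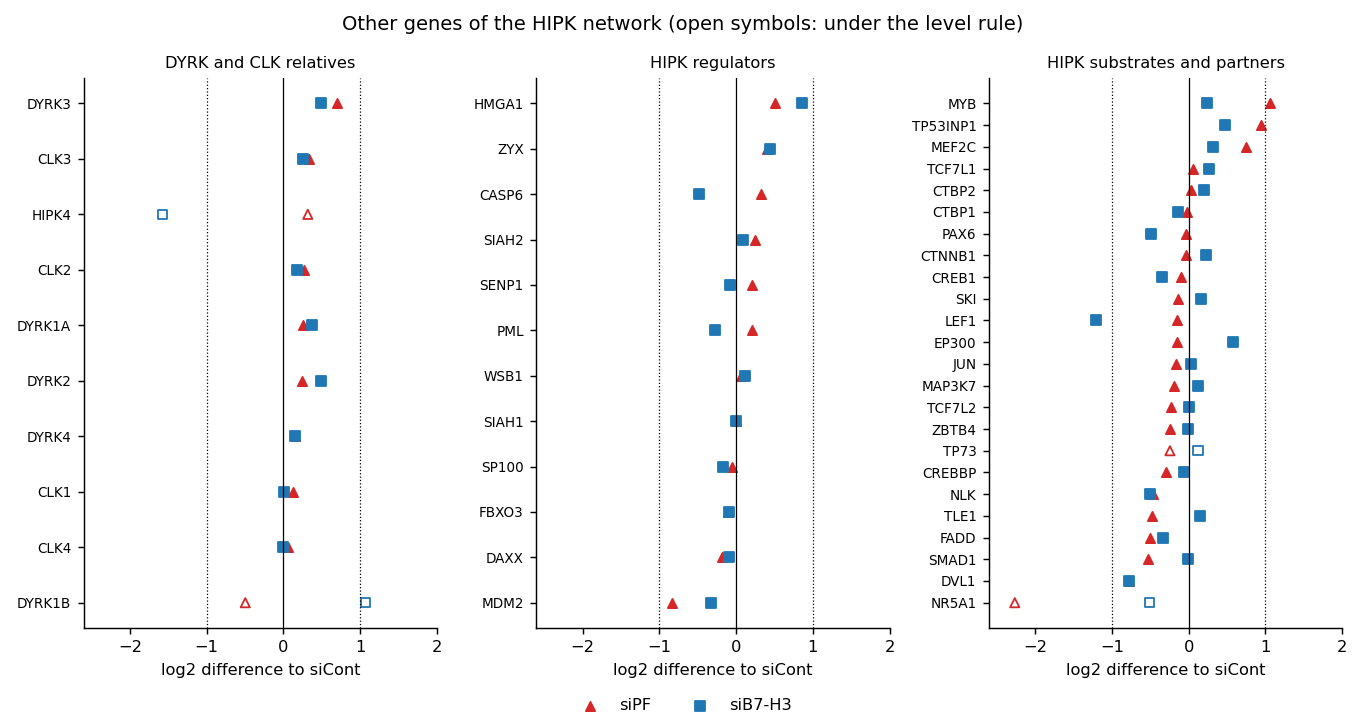
Log2 difference to siCont (horizontal axis) in siPF (red triangles) and siB7-H3 (blue squares), 1 gene per line. Shown are the measured DYRK and CLK relatives with HIPK4, HIPK regulators, and HIPK substrates and partners. Filled symbols passed the level rule, open symbols did not, and dotted lines mark 2-fold. Only MYB in siPF (1.06) and LEF1 in siB7-H3 (-1.21) lie past 2-fold with a filled symbol.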

How the data were processed

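Total RNA of Rh-30 cells was hybridized by the authors to GeneChip Human Genome U133 Plus 2.0 arrays, 1 for each condition. Each deposited value is the linear intensity of a probe set, for which the submitters' processing notes name Affymetrix Expression Console 1.4.1. How probes were summarized is not given in the sources used here. Leaving out 2% of probe sets at each end, every array had a mean of 500.1, so a shift of the whole RNA content between cultures is scaled away. The number of arrays limits the precision.

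Values were taken to log2, without floor or pseudocount. Of 54675 probe sets, 41091 carried 1 gene name (platform annotation, symbols updated by gene ID through RefSeq). For each gene the probe set brightest by mean log2 intensity was used. Past 2-fold means a log2 difference of 1 or more, or of -1 or less. Named were the HIPK genes at every probe set, the siRNA targets, list members past 2-fold over the level limit, others of the lists by role, and the 5 nearest patterns. EMP2 and the genes named for alternatives were chosen after their values were seen. The 3 lists came from general knowledge, and members and lists were chosen with earlier results of these data known. Python 3.11.15, numpy 2.4.6, pandas 2.3.3 and matplotlib 3.10.9 were used. The computations were checked on simulated data. Alternatives covered the choice of probe set, the scaling, low values, the level rule and the distance.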

Additional observations from a re-analysis of the deposited data

How the results depend on the processing

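No paired analysis was possible because each condition had 1 array. The log2 difference of HIPK3 in siPF stayed past 2-fold under the alternatives run, but its size varied, from 1.03 at 213697_at and 1.32 with the median over its probe sets to 2.62, and with the scaling on control transcripts 2 of its 4 probe sets were past 2-fold. Its difference in siB7-H3 went short of 2-fold with the median over its probe sets (0.79), with the scaling on added control transcripts, chosen after seeing the data (0.87), and at its other probe sets (0.95, 0.31 and 0.87), and siPF minus siB7-H3 with the median over probe sets (0.52). HIPK1 in siPF passed 2-fold with that median (1.25) and at its other probe sets (1.20, 1.31 and 2.41), and in siB7-H3 at 2 of them (1.14 and 1.91). Its siPF minus siB7-H3 value went from -0.50 to 0.27 with the median. HIPK2 in siPF passed 2-fold at 240294_at (2.36) and moved at 224065_at (0.38), and in siB7-H3 it passed at 240294_at (2.89) and moved at 4 others (0.42, 0.54, 0.65 and -0.49). Moved means by more than 1 SD of the probe sets nearest to the brightest probe set of the gene, 0.30 for HIPK2 in either knockdown. The dim 224065_at in siPF and 224066_s_at in siB7-H3 had SDs of 1.84 and 1.88 among their own nearest probe sets. Their shifts were thus inside their own spread. In all, 82 of 102 alternative values of the HIPK genes kept their side of 2-fold, with those short of 2-fold within 1 SD taken at the brightest probe set. A floor at the 60th percentile, the highest value per gene and the omission of less specific probe sets returned the main values unchanged. They left the brightest probe set of each HIPK gene in place, so these values could not have moved. The count thus says less about robustness than its size implies. List counts of 0 became 1 without the level rule for DYRK1B, HIPK4 and NR5A1. With the median over probe sets, 1 became 0 for MYB and LEF1. Without probe sets that can bind several transcripts LEF1 had no value, so its counts became 0 there whatever its level. With the scaling on control transcripts the MYB count became 0, MDM2 was past 2-fold lower in siPF, and LEF1 and DVL1 were past 2-fold lower in siB7-H3, a count of 2. The other 166 of 180 list counts were unchanged. The cause of these changes was not tested. The differences of dim probe sets scattered widely, with SDs up to 1.88 among the nearest probe sets, against 0.27 for the brightest of HIPK3 in siB7-H3.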
